A study of Mus musculus with 6 samples.

Results

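Collagen must be chemically modified inside the cell and again outside it before it forms a stable fibre, and 10 genes of that pathway are described here in cultured mouse lymphatic endothelial cells (LEC). They are the lysyl oxidase gene Lox with its relatives Loxl1, Loxl3 and Loxl4, the prolyl 4-hydroxylase alpha subunits P4ha1, P4ha2 and P4ha3, the lysyl hydroxylases Plod1 and Plod2, and Pcolce. They were chosen by symbol among the genes measured singly on an Affymetrix mouse array, and all 10 of the 10 had a probe set (a group of short probes for 1 transcript) that belongs to no other gene. Tumour LEC came from T241/VEGF-C/GFP fibrosarcomas, tumours of a mouse fibrosarcoma line carrying the lymphatic growth factor VEGF-C and a fluorescent protein, in C57BL/6 mice whose age the labels do not give. The normal LEC were dermal, from the skin of the tail of C57BL/6 females aged 8 weeks. Both were grown in endothelial medium on gelatin and selected with antibodies to LYVE-1, a surface receptor of lymphatic endothelium, and each group had 3 arrays. The array titles of the tumour group speak of tumour cells and the source descriptions of LEC. The labels do not say whether replicates were separate cultures or animals. A p-value here therefore sets the group difference against no more than the spread of arrays within the groups.

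Prolyl 4-hydroxylase hydroxylates proline in newly made collagen chains, which lets the triple helix stay folded at body temperature, and lysyl hydroxylases modify lysine, the residue later used for cross-links and for attaching sugars. Both work in the endoplasmic reticulum. After secretion, procollagen C-proteinases such as BMP1 cut off the end of the molecule, helped by the enhancer that Pcolce encodes. Lysyl oxidases are secreted copper enzymes that oxidise lysine in collagen and elastin so that neighbouring molecules become covalently linked. Fibroblasts are the best known source of these secreted enzymes in skin, while endothelial cells make the collagens of their own basement membrane.

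Values are log2 expression per probe set, and a difference is tumour LEC minus normal LEC on that scale, so 1 unit is a 2-fold difference in signal. Each array has a background limit, the highest value among 27 control probe sets for bacterial RNA, which was 3.40 to 3.71. All 6 measured lymphatic markers of the list used here, among them Lyve1, Prox1, Pdpn and Flt4, were above that limit on all arrays. Normal replicate 1 stood apart from the other normal arrays by its fibroblast markers, whose mean log2 value was 9.53 there, against 6.85 and 6.84 in normal replicates 2 and 3. On the tumour arrays the same 10 markers averaged 4.35, 3.54 and 3.98. In tumour replicate 3 the array median was 3.15, against 2.99 to 3.02 on the other 5 arrays.

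Promoters of 6 of the 10 genes were in the RefSeq table used here (GRCm38.p6, 250 bases before to 50 after a start site), those of Plod1, Pcolce, P4ha3, P4ha1, P4ha2 and Loxl4. Parts of them are shown for the hydroxylase subunits P4ha1 and P4ha2, whose group values differed in pattern, and for Pcolce, whose groups lay far apart. P4ha1 and P4ha2 are textbook targets of the hypoxia-inducible factor, so ACGTG, the core of its response element, was searched on both strands, with CCAAT and TATAAA as general promoter elements. Capitals mark every match to one of the 3 motifs, on either strand. ACGTG overlaps its own reverse complement wherever both occur as CACGTG, and no other overlap was found here. The bases before the first base of the RefSeq gene record are at chr10:59323046-59323196 on the plus strand for P4ha1, at chr11:54100674-54100923 on the plus strand for P4ha2 and at chr5:137611523-137611654 on the minus strand for Pcolce. For P4ha1 and Pcolce the start site lies inside the gene record, so the bases printed before the record stop short of it. A site of 30 bases with the match in P4ha1 lies at chr10:59323268-59323297, and the match in P4ha2 after its start site at chr11:54100922-54100951.
P4ha1: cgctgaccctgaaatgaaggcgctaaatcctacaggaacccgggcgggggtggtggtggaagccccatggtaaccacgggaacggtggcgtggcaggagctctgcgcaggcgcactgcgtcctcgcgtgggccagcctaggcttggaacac
P4ha1 site: tgtgacagagcgCACGTagcgagggctgcg
P4ha2: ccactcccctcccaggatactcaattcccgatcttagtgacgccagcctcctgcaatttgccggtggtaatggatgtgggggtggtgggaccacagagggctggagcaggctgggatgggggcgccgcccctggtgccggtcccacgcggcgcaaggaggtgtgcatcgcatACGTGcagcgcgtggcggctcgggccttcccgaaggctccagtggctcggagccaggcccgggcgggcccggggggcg
P4ha2 site: cgggaggtggggACGTGgcggaggctcaag
Pcolce: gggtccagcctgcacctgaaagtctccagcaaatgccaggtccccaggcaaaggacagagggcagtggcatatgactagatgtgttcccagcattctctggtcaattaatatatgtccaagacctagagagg

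ACGTG was found in the promoters of 2 of the 6 genes, P4ha1 and P4ha2, and in 19.6% of the 32851 promoters of 300 bases in the table. In P4ha1 it begins at position -16 from the start site, and in P4ha2 at -78 and 11. TATAAA was found in 2 of the 6 (Plod1 at -232 and P4ha1 at 40), against 13.6% of all, and CCAAT in 0 of the 6, against 37.4% of all. Both TATAAA matches lie outside the sequences printed above. Over the whole 300 bases the promoters of P4ha1 and P4ha2 both had 70.3% G and C, and that of Pcolce 59.3%. A match is a description of these letters and not evidence that a factor binds.

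Of the 10 members 5 read lower on every tumour array than on any normal array, and most of these encode secreted proteins. Of the 5 secreted members, Lox, Loxl1, Loxl3 and Pcolce had all 3 tumour arrays below all 3 normal arrays, and Loxl4 overlapped. Of the 5 hydroxylases, P4ha3 was lower without overlap, P4ha1 was higher without overlap, and P4ha2, Plod1 and Plod2 overlapped. The median difference was -4.73 over the 5 secreted members and 0.27 over the 5 hydroxylases, and the difference between these sets was not tested. Over all 10 the median was -0.59, beside 0.03 over the 12955 genes tested. None of the 10 reached an adjusted p under 0.05 (limma, with Benjamini-Hochberg over all genes), which 28 genes, or 0.216%, did.

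Without adjustment, 6 of the 10 had a p under 0.05, 5 lower and 1 higher in tumour LEC. Over all genes tested the share was 15.5% in either direction, 8.83% lower and 6.66% higher. The groups did not overlap with tumour LEC lower for 5 of the 10 members, against 11.6% of all genes, and with tumour LEC higher for 1 of the 10, against 20.9%. In either direction this was 6 of the 10, against 32.4%. At least 2-fold lower were 5 of the 10, against 6.76% of all genes, and at least 2-fold higher 0 of the 10, against 3.84%.

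**Figure D1:**
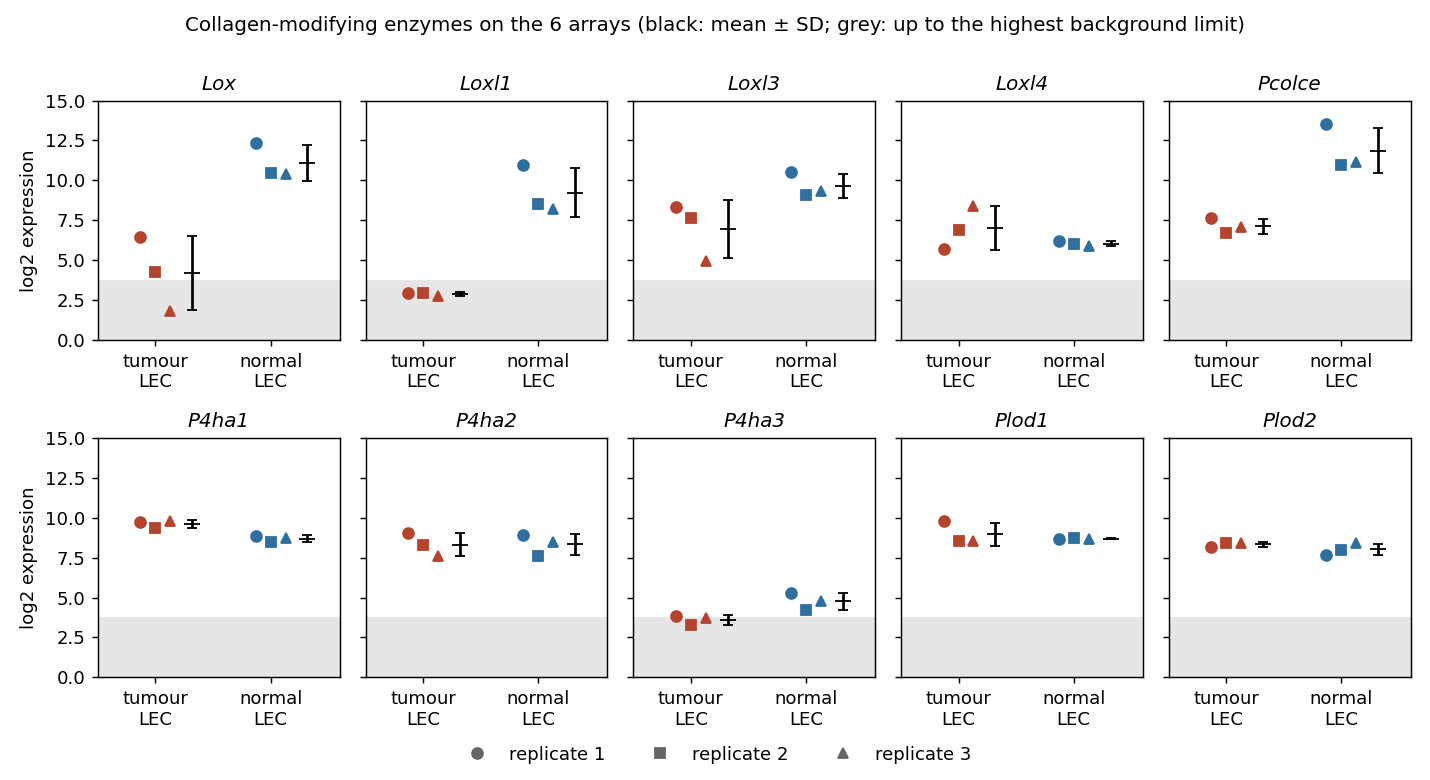
Log2 expression of the 10 genes on each array, tumour LEC left of normal LEC, with symbols for the replicate, black bars for the mean ± SD (n = 3) and grey up to the highest background limit of an array (3.71). Lox, Loxl1, Loxl3 and Pcolce lie lower on all tumour arrays, and P4ha1, P4ha2, Plod1 and Plod2 stay between 7.62 and 9.80 in both groups.

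Lox encodes lysyl oxidase, the founding member of the family and a cross-linker of collagen and elastin. It read 6.43, 4.29 and 1.80 in tumour replicates 1, 2 and 3, against 12.36, 10.44 and 10.38 in normal LEC. The tumour arrays were spread widely and 1 of them was at background, yet the highest stood far below the lowest normal array. Lox averaged 4.18 ± 2.31 on tumour arrays and 11.06 ± 1.13 on normal arrays (SD, n = 3 each), which differ by -6.89 (SE 1.26, limma adjusted p = 0.104). With the array at background raised to its limit, the tumour signal of Lox was lower by at least 76.2-fold. A second probe set read 4.31, 4.33 and 3.49 in tumour LEC, against 10.06, 7.83 and 7.56 in normal LEC, lower by at least 20.6-fold with 1 tumour array at background. Its tumour arrays lay closer together than those of the first, and its groups did not overlap either. The remaining probe set for Lox was at background on all 6 arrays.

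Loxl1, a lysyl oxidase known for its part in elastic fibres, read at background on every tumour array. Its values were 2.92, 2.96 and 2.75 in tumour LEC, against 10.99, 8.49 and 8.21 in normal LEC. The difference was -6.36 (SE 0.75, limma adjusted p = 0.0577), at least 50.5-fold lower in tumour LEC. Normal replicate 1 was higher than the other normal arrays by 2.63. The SD was 0.11 in tumour LEC, where it is a spread of values at background, against 1.53 in normal LEC (n = 3). Without normal replicate 1 the difference was -5.48 and the gene passed (limma adjusted p = 0.00176), a p that rests on that small spread. With any other single array left out it did not pass (limma adjusted p = 0.112 to 0.228). Its dimmer probe set was at background on the tumour arrays too, with a bound of 1.86-fold.

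Pcolce, which encodes the procollagen C-proteinase enhancer, was dimmer in tumour LEC but stayed above background there. It read 7.64, 6.70 and 7.06 in tumour LEC, against 13.52, 10.96 and 11.12 in normal LEC. The 3 tumour arrays lay within 1 unit of each other, and normal replicate 1 was 2.48 above the mean of the other normal arrays. The difference was -4.73 (SE 0.74, limma adjusted p = 0.0853), or 26.6-fold lower in tumour LEC. The other probe set gave 4.60, 4.37 and 3.73 in tumour LEC, against 10.58, 8.08 and 7.96 in normal LEC, and differed by -4.64, close to the first. Without normal replicate 1 the difference of the brighter probe set was -3.91 and it passed (limma adjusted p = 0.0265). With any other single array left out it did not pass (limma adjusted p = 0.133 to 0.266).

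Loxl3, a relative with scavenger receptor domains, showed a smaller and less even difference. It read 8.31, 7.66 and 4.93 in tumour LEC, against 10.51, 9.07 and 9.34 in normal LEC. All tumour arrays were lower than all normal arrays, but tumour replicate 3 was far below the other tumour arrays. The difference was -2.67 (SE 0.96, limma adjusted p = 0.285) with all arrays and -1.65 (adjusted p = 0.371) without tumour replicate 3.

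Loxl4, a further relative of the same type, was the 1 lysyl oxidase of the 4 measured whose mean was not lower in tumour LEC. It read 5.69, 6.90 and 8.42 in tumour LEC, against 6.20, 6.02 and 5.91 in normal LEC. The normal arrays were nearly equal, and the tumour arrays lay on both sides of them, so the groups overlapped. The difference was 0.96 (SE 0.68, limma adjusted p = 0.514), with an interval of -0.72 to 2.65 (95%, not adjusted). It was 0.26 without tumour replicate 3 (adjusted p = 0.779). The second probe set read 5.16, 6.58 and 8.31 in tumour LEC, against 5.66, 6.32 and 5.77 in normal LEC, again highest in tumour replicate 3. That array was thus the highest of the 6 for Loxl4 and the lowest of the 6 for Lox and Loxl3. It was also the highest for P4ha1 and Plod2 and the lowest for Loxl1 (at background), Plod1 and P4ha2, for some of these narrowly.

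**Figure D2:**
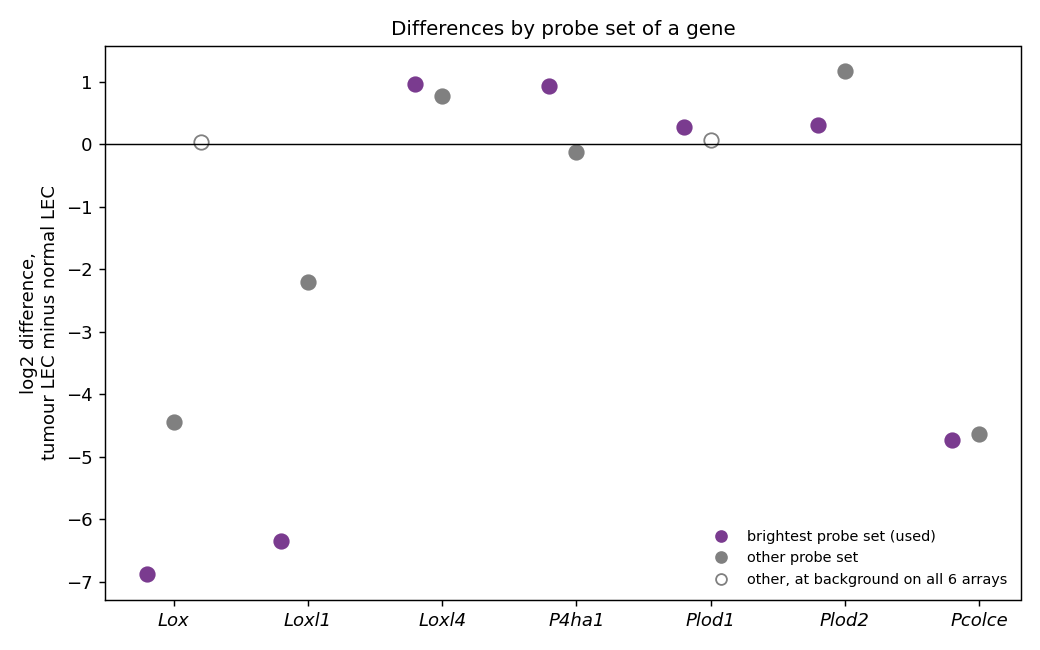
Log2 difference, tumour LEC minus normal LEC, of each probe set of the 7 genes with more than 1, purple for the brightest and grey for the others, open where all 6 arrays were at background. Both Pcolce probe sets lie near -4.7, while the dimmer probe set of P4ha1 lies at -0.13 and that of Plod2 at 1.17.

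Among the hydroxylases, P4ha1, a catalytic alpha subunit of prolyl 4-hydroxylase, was higher on every tumour array. It read 9.71, 9.35 and 9.80 in tumour LEC, against 8.88, 8.45 and 8.74 in normal LEC. The spread within each group was small, with an SD of 0.24 in tumour LEC and 0.22 in normal LEC (n = 3), and the groups did not overlap. The difference was 0.93 (SE 0.18, limma adjusted p = 0.118), or 1.90-fold. A dimmer probe set gave 5.03, 5.20 and 5.13 in tumour LEC, against 5.20, 4.79 and 5.76 in normal LEC, and differed by -0.13, so the probe sets disagree. With their mean the difference was 0.40 (adjusted p = 0.365).

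P4ha2, the alternative alpha subunit, did not separate the groups. It read 9.02, 8.30 and 7.62 in tumour LEC, against 8.92, 7.62 and 8.49 in normal LEC. The difference was -0.03 (SE 0.48, limma adjusted p = 0.977), with an interval of -1.22 to 1.16 (95%, not adjusted), and its sign changed with quantile normalization and when normal replicate 1, normal replicate 3 or tumour replicate 3 was left out. P4ha3, the rarest of the alpha subunits in most tissues, was dim throughout. It read 3.87, 3.25 and 3.70 in tumour LEC, where 2 of the 3 arrays were at background, against 5.27, 4.21 and 4.81 in normal LEC. The difference was -1.16 (SE 0.31, limma adjusted p = 0.204), at least 2.09-fold lower in tumour LEC.

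Neither lysyl hydroxylase passed the test, and both overlapped by their brightest probe sets. Plod1, which acts on lysine within the helix, read 9.79, 8.55 and 8.52 in tumour LEC, against 8.65, 8.73 and 8.66 in normal LEC. Tumour replicate 1 stood alone above the normal arrays, and the other tumour arrays lay just below them. The difference was 0.27 (SE 0.37, limma adjusted p = 0.697), and -0.15 without tumour replicate 1. Plod2, which acts on the telopeptides at the ends of the molecule, read 8.16, 8.41 and 8.41 in tumour LEC, against 7.70, 7.97 and 8.41 in normal LEC. These groups overlapped only through normal replicate 3, and the difference was 0.30 (SE 0.21, limma adjusted p = 0.510). Its dimmer probe set did not overlap, with 6.35, 7.21 and 6.54 in tumour LEC, against 5.54, 5.12 and 5.93 in normal LEC, and differed by 1.17. With the mean of its probe sets Plod2 differed by 0.74 (limma adjusted p = 0.241).

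Fibroblast markers were lower in tumour LEC like the lower members, but not in step with all of them on the tumour arrays. Among these arrays their mean was lowest in tumour replicate 2, as were Pcolce and P4ha3. Lox and Loxl3 were lowest in tumour replicate 3, and Loxl1 was at background throughout. Of 10 markers, among them Pdgfra, Pdgfrb, Dcn, Twist1 and Prrx1, all 10 had a lower mean in tumour LEC (median -3.98). For 9 of them the groups did not overlap, against 11.6% of all genes with tumour LEC lower. On the tumour arrays 7, 3 and 6 of the 10 were above background, against 10, 8 and 8 on the normal arrays. Lum, Fap and Mfap5 were at background on every tumour array. Lum and Fap were at background on 2 of the 3 normal arrays as well, and read 7.74 and 6.42 in normal replicate 1. Fap is counted among the 9 without overlap. Within the normal group all 10 markers peaked in normal replicate 1, and so did 8 of the 10 members. These were all 5 that were lower without overlap and also Loxl4, P4ha1 and P4ha2. Loxl4 peaked there narrowly (6.20, against 6.02 and 5.91), as did P4ha1 (8.88, against 8.45 and 8.74). Of 18 other collagen maturation genes 11 peaked there too. The share over all genes was not counted, so the count of members cannot be set against it. Normal replicate 1 exceeded the mean of the other normal arrays by a median of 2.77 over the markers, by 1.95 for Lox, by 1.30 for Loxl3 and by 0.75 for P4ha3. Without normal replicate 1 the difference was -6.24 for Lox, -2.24 for Loxl3 and -0.90 for P4ha3, and the median over the fibroblast markers was -3.13. Without that array Lox, Loxl3 and P4ha3 did not pass (limma adjusted p = 0.24, 0.547 and 0.391). The part of fibroblast RNA or of RNA from other mesenchymal cells in these differences was not tested, and fewer cells of a type and less RNA per cell cannot be told apart in such samples.

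Endothelial markers were lowest on average in normal replicate 1. The 6 pan-endothelial markers averaged 9.53, 8.82 and 8.95 in tumour LEC, against 7.48, 8.32 and 8.86 in normal LEC, with a median difference of 0.91, or 0.47 without normal replicate 1. Of the 6, 0 passed (limma, adjusted) and 1 had an unadjusted p under 0.05, against 15.5% of all genes in either direction. Cdh5, the junctional cadherin of endothelium, differed by 1.01 and Esam, an endothelial adhesion molecule, by 2.08, or by 0.52 and 1.56 without normal replicate 1. Both were higher without overlap and not past the threshold (adjusted p = 0.354 and 0.174, limma). These are 2 of the 6, against 20.9% of all genes. Pecam1, Tek, Kdr and Tie1 overlapped, with differences of 1.44, 0.81, -0.10 and 0.02. The part of a different endothelial share in the members' values was not tested.

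Markers of other cell types were mixed. The 8 leukocyte markers averaged 7.24 in tumour replicate 1, which was also the highest tumour array for 6 members (Lox, Loxl3, Pcolce, Plod1, P4ha2 and P4ha3), and 5.32 and 4.88 on the other tumour arrays, against 5.52 to 6.39 in normal LEC. Among the tumour arrays, the means of the fibroblast, lymphatic and pan-endothelial markers were highest there too, and those of the pericyte and keratinocyte markers were not. The part of leukocytes in the members' values was not tested. Of 7 pericyte and smooth muscle markers, 5 were at background on every tumour array and 4 on every normal array. The pericyte proteoglycan gene Cspg4 was lower without overlap, at background in tumour LEC, against 8.11, 5.38 and 6.66 in normal LEC. It was lower by at least 8.84-fold (limma adjusted p = 0.101). Acta2 and Tagln, of the contractile apparatus, read 9.97 to 13.28 on the tumour arrays, against 9.25 to 13.96 on the normal arrays, and overlapped. Their means went opposite ways, with a difference of -1.09 for Acta2 (SE 0.77) and 1.31 for Tagln (SE 0.89). The part of such cells was not tested. Among the 5 keratinocyte markers, 3 were at background on every array of both groups.

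**Figure D3:**
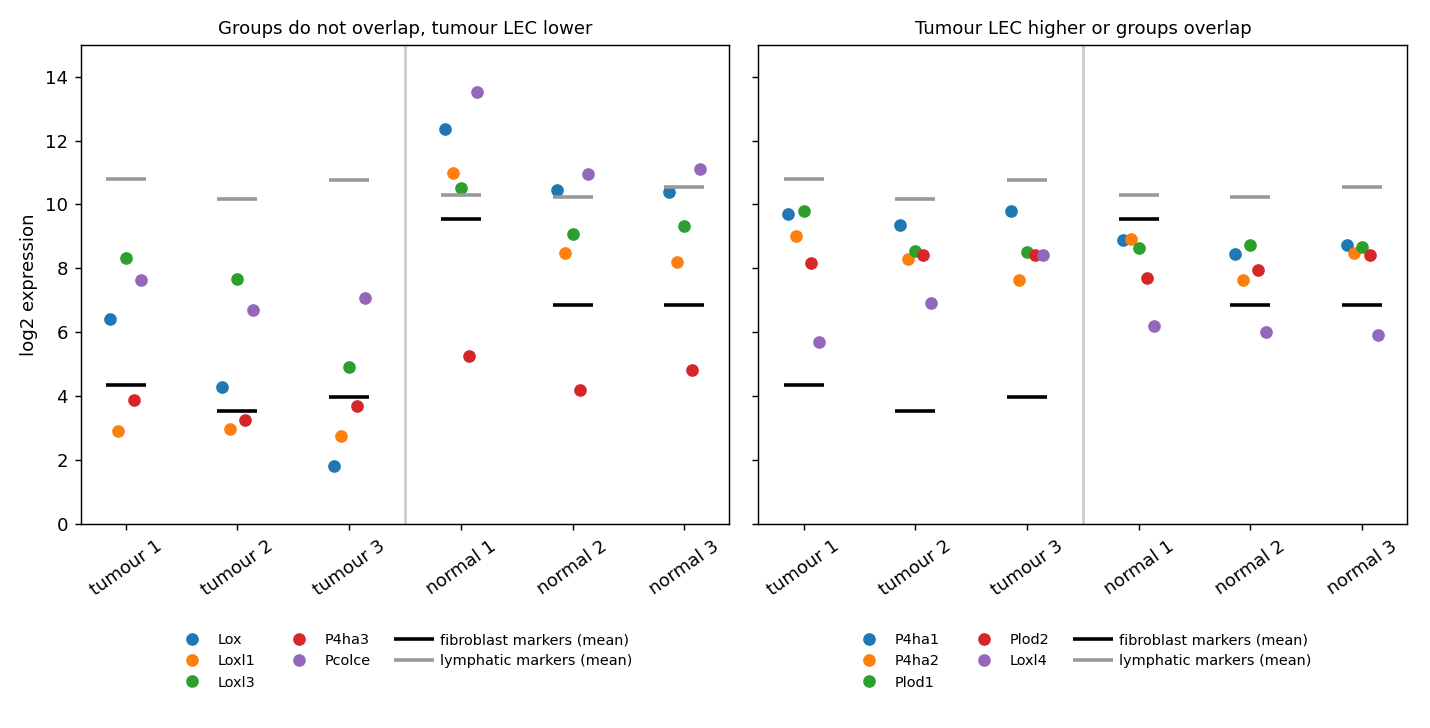
Log2 expression on each array, tumour LEC left of normal LEC, of the 5 genes that were lower without overlap (left panel) and of the other 5 (right panel), with bars for the mean over 10 fibroblast and 6 lymphatic markers. The fibroblast bar is highest in normal replicate 1 (9.53), as are the 5 genes of the left panel, whereas the lymphatic bar stays between 10.17 and 10.79 on all arrays.

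Of 9 genes for collagen chains and elastin, the substrates of these enzymes, 1 passed the test, against 0.216% of all genes. Col1a2, a chain of fibrillar type I collagen, passed the test, and with 2 tumour arrays at background its tumour signal was lower by at least 492-fold (limma adjusted p = 0.0276). The fibrillar chains Col1a1, Col3a1, Col5a1 and Col5a2 were lower without overlap and did not pass. The basement membrane chains Col4a1 and Col4a2 read 14.86 ± 0.05 and 12.79 ± 0.16 in tumour LEC, against 14.47 ± 0.16 and 12.23 ± 0.17 in normal LEC (SD, n = 3), higher without overlap and not past the threshold (adjusted p = 0.243 and 0.188, limma). Col18a1, another basement membrane chain, differed by 0.21 (SE 0.35) and overlapped. Eln, which encodes elastin, the other lysyl oxidase substrate, was at background on every tumour array and on 2 of the 3 normal arrays, and read 5.03 in normal replicate 1.

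Other genes of collagen maturation did not pass the test. Of 22 listed genes 18 were measured singly and 14 were above the filter on low values. Of these 14, 0 passed (limma, adjusted). At an unadjusted p under 0.05, 2 of the 14 were higher and 3 lower, against 6.66% and 8.83% of all genes. Their median difference was -0.01. Pcolce2, the second C-proteinase enhancer, differed most, with 6.82, 4.70 and 5.02 in tumour LEC, against 11.96, 10.98 and 10.68 in normal LEC, a difference of -5.69 (SE 0.65, limma adjusted p = 0.0577). Both enhancers were therefore lower without overlap. Bmp1, the proteinase that they enhance, differed by -0.23 (SE 0.17) and overlapped. Tll1, a proteinase of the same family, read 6.75, 6.63 and 6.12 in tumour LEC, against 5.14, 4.72 and 5.54 in normal LEC, higher without overlap by 1.37 (SE 0.27, limma adjusted p = 0.123).

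Partners of the hydroxylases in the endoplasmic reticulum were measured beside them, and none passed the test. P4hb, the beta subunit that holds every alpha subunit in solution, averaged 13.28 ± 0.30 on tumour arrays and 13.20 ± 0.04 on normal arrays (SD, n = 3 each). Serpinh1, the collagen chaperone HSP47, differed by -0.16 (SE 0.18), and Plod3, the remaining lysyl hydroxylase, by -0.02 (SE 0.21). Fkbp14, a prolyl isomerase, was higher without overlap by 0.59 (SE 0.22), and P3h1, a prolyl 3-hydroxylase, differed by 0.35 (SE 0.17). Crtap, a partner of P3h1, was lower without overlap at -0.48 (SE 0.15), as was P3h4, a component of a lysyl hydroxylase complex, at -1.10 (SE 0.32). The adjusted p was 0.220 to 0.377 for these 4 genes (limma).

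**Figure D4:**
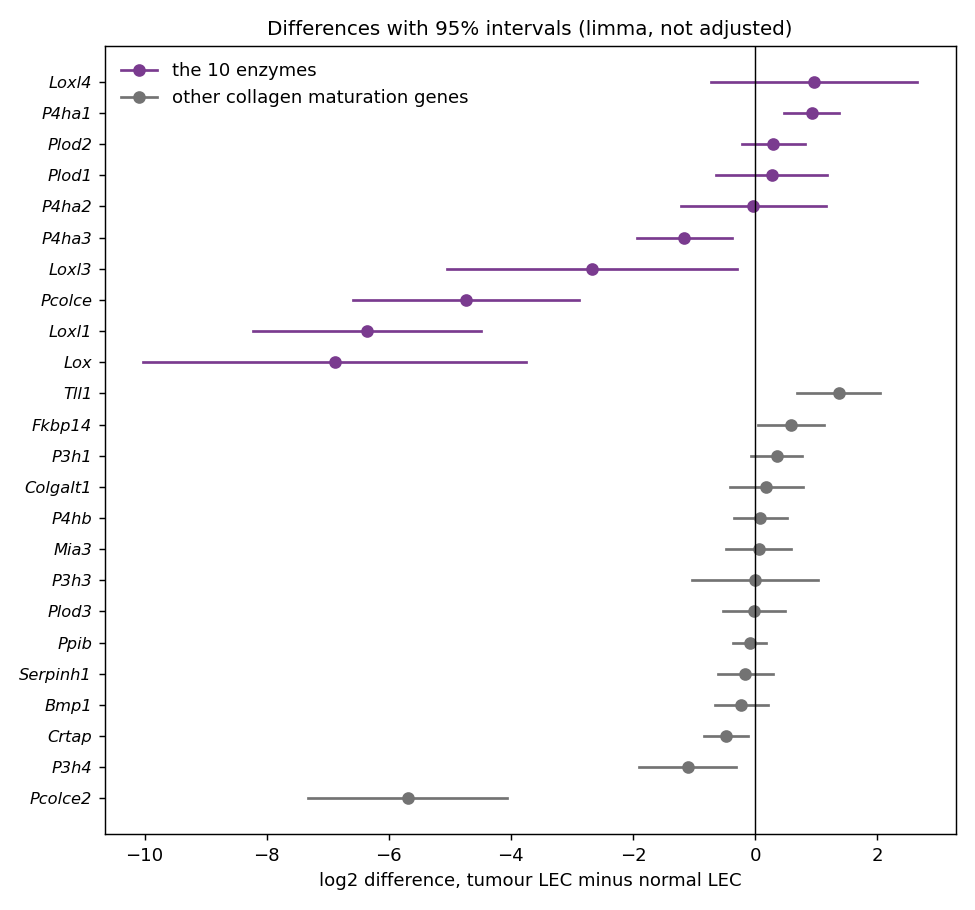
Log2 difference, tumour LEC minus normal LEC, with its 95% interval (limma, not adjusted), of the 10 enzymes (purple) and of 14 other collagen maturation genes (grey). Lox, Loxl1, Pcolce and Pcolce2 lie between -4.73 and -6.89, and most of the others lie near 0.

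Since P4ha1, P4ha2, Plod2 and Lox are known targets of the hypoxia-inducible factor, 12 other targets are given beside them. None passed the adjusted test (limma), and 4 were higher and 1 lower at an unadjusted p under 0.05, against 6.66% and 8.83% of all genes. Their median difference was 0.30. Adm, the precursor of adrenomedullin, read 13.62, 13.94 and 14.64 in tumour LEC, against 11.22, 12.31 and 12.52 in normal LEC, a difference of 2.05 (SE 0.43, limma adjusted p = 0.135). Slc2a1, the glucose transporter GLUT1, was higher without overlap by 1.38 (SE 0.36), and Ndrg1 by 0.82 (SE 0.33). Vegfa, which encodes the growth factor VEGF-A, was at background on 2 tumour arrays and lower without overlap by at least 1.88-fold, while Ldha, of lactate dehydrogenase, differed by -0.25 (SE 0.13) and Egln3, an oxygen-sensing hydroxylase, by -0.63 (SE 0.71). Egln1, another oxygen-sensing hydroxylase, was higher without overlap by 0.43 (SE 0.17). The brightest probe set of P4ha1, though not its other one, was higher without overlap like Adm, Slc2a1, Ndrg1 and Egln1, whereas Lox and Vegfa were lower. Of the 12 targets 4 were thus higher without overlap, against 20.9% of all genes, and 1 lower, against 11.6%. The rest of the 12 overlapped, as did P4ha2 and the brightest probe set of Plod2.

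The genes most like each member over the 6 arrays were named by Pearson's r among all genes tested, as a description. The arrays fall into the same 2 groups for every gene, so a high r is common among genes that differ between the groups. Pcolce was most like the fibrillar collagen chain Col3a1 (r = 0.999), the calcification inhibitor Mgp (0.997) and the fibroblast receptor Pdgfrb (0.996). Loxl1 was most like Fgf7, a growth factor of mesenchymal cells (r = 0.999), the ectonucleotidase gene Nt5e (0.999) and Garem1 (0.998). Lox was most like Vasn (r = 0.997), Glis2 (0.997) and Gpr161 (0.996). For Loxl3 the genes were Gsn, which encodes the actin-severing protein gelsolin (r = 0.998), Tia1 (0.998) and Il4ra (0.995), and for Loxl4 Pdcl3 (0.993), Slc46a1 (0.991) and Abcc12 (0.988). P4ha1 was most like Tap2, a peptide transporter (r = 0.994), Psmb10, a proteasome subunit (0.993), and Fry (0.992). For P4ha2 they were Pik3r4 (r = 0.995), Arhgef6 (0.982) and Gm5617 (0.978), and for P4ha3 Nectin3 (0.993), Dpy19l1 (0.989) and Mboat7 (0.985). Plod1 was most like Wbp1l (r = 0.995), Rassf4 (0.990) and Ifit1bl1 (0.989), and Plod2 most like Tnfrsf23 (0.989), Cnep1r1 (0.984) and Capza1 (0.979). Genes that differed by over 4 log2 units themselves were near Lox (Vasn, -4.97), Loxl1 (Fgf7, -6.61) and Pcolce (Col3a1, Mgp and Pdgfrb, -7.18 to -5.77), and those near the other members differed by -2.57 to 1.80.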

How the data were processed

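The authors deposited log2 expression values per probe set for 45101 probe sets and 6 arrays, made from 50 ng of total RNA per array per the labels' protocols. The tools named in the submitters' processing notes are RMA and GCRMA, without a statement of which produced the table. Both correct background and normalize between arrays, and GCRMA draws dim signals to a floor, so folds against background are given as bounds. The number of arrays limits the precision. Probe sets of exactly 1 gene (34945, by GEO's platform annotation) were used, and the brightest by mean over the 6 arrays stood for a gene. Loxl2 has no probe set of its own and is not reported. Probe sets with a mean above the 40th percentile (2.71) were compared with limma 3.58.1 in R 4.3.3 (lmFit, eBayes, Benjamini-Hochberg over 12955 genes, two-sided), a procedure tested on simulated data. Those data held independent noise and no outlying array. The procedure missed most of the smallest simulated differences, so a gene that did not pass may still differ. Members, lists and tests were chosen with earlier results of these data known. All members are named. From the other collagen maturation and hypoxia lists the 3 genes per direction with the smallest p were named, and P4hb, Bmp1, Serpinh1, Plod3 and Egln1 were added after their values were seen. Substrates and markers are named where they stand beside a member, and the 3 genes most like each member. Alternatives were another filter, normalization, centring, variance model, array weights, probe set summary, a replicate block and leaving out arrays.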

Additional observations from a re-analysis of the deposited data

How the results depend on the processing

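The direction of 8 of the 10 members was the same under all 17 alternatives, and those of P4ha2 and Plod1 were not. P4ha2 differed by 0.056 with quantile normalization, by 0.60 with normal replicate 1 and tumour replicate 3 both left out, and by -0.39 to 0.32 when single arrays were left out. Plod1 differed by -0.0074 with array weights and by -0.15 to 0.49 without single arrays. Against 0 of the 10 members called in the reported fit, 1 (Loxl1) was called with the 60th percentile filter, with trend and robust variance, with values raised to the background limit, and with normal replicate 1 and tumour replicate 3 left out. The last 2 settings were chosen after seeing the data. With array weights 3 were called (Lox, Loxl1 and Pcolce), and without single arrays 0 to 2, the 2 (Loxl1 and Pcolce) without normal replicate 1. Of the other collagen maturation genes 1 was called with the 60th percentile filter, with trend and robust variance, with the replicate block and with values raised to the limit, and 2 with array weights. The count over all genes was 28 and became 10 with no filter, 97 with the 60th percentile filter, 385 with array weights, 46 with the replicate block, 12 with both arrays left out, 64 with values raised to the limit, and 4 to 81 without single arrays. The cause was not tested. Whether the replicate numbers pair the arrays is not settled by these values. Same-numbered deviations correlated at 0.19, 0.33 and -0.004, and differently numbered ones at -0.37 to 0.13. With the replicate block 0 members were called, as in the reported fit, so that count cannot decide it. The SE was 0.62 for Lox and 0.64 for Loxl4 with the block, against 1.26 and 0.68 in the reported fit. The median over the members lay between -0.91 and -0.38 without single arrays. Background limits Loxl1 on all 3 tumour arrays, P4ha3 on 2 and Lox on 1, where only bounds can be given.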
